A study of Mus musculus with 6 samples.

Results

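STAT and JAK genes were followed in the RNA of bone marrow-derived macrophages (BMDMs) after 1 h with or without lipopolysaccharide (LPS). The 9 genes were taken by name from the 55335 genes of the count table, as the 5 STAT genes Stat2, Stat3, Stat5a, Stat5b and Stat6 and the 4 kinase genes Jak1, Jak2, Jak3 and Tyk2, through GENCODE M21. Other STAT genes were not analysed here. Marrow cells of wild-type C57BL/6 mice had been grown for days in medium conditioned by L929 cells, a fibroblast line whose medium drives macrophage growth. The 3 control libraries came from cells given phosphate-buffered saline (PBS) and the 3 LPS libraries from cells given LPS, a bacterial cell wall component that macrophages sense through Toll-like receptor signalling. The animals were young adult males, per the study's methods. The labels number the replicates of each group as batches 1 to 3. They do not say whether these were separate mice, so the p-values measure the spread between these libraries, which may be technical.

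Cytokine receptors that work through Janus kinases (JAKs) have no kinase activity of their own. The JAKs sit on the inner tails of the receptor chains, phosphorylate them when a cytokine binds, and so recruit STAT proteins. The STATs are phosphorylated in turn, pair up and enter the nucleus to activate transcription. In macrophages this route carries the signals of interferons, many interleukins and some colony-stimulating factors, and SOCS proteins switch it off. The kinases and STATs are themselves controlled mostly by phosphorylation, and the libraries measure only their RNA.

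Library totals ranged from 37787611 to 41516330 counts. Levels below are in CPM, counts scaled to a common library size, with the size of each library adjusted by edgeR's TMM factor, and groups were tested by the quasi-likelihood method of edgeR, with p-values adjusted by Benjamini-Hochberg over 15687 genes. Genes were called at an adjusted p under 0.05, with or without an absolute log2 fold change above 1. TMM factors averaged 1.15 for PBS and 0.869 for LPS, which bears on small changes. Scaling by library size alone moved the median of all genes by -0.40 on the log2 scale, and upper quartile scaling by -0.14. Tnf, which marks the LPS response, was higher in each LPS library, with a log2 fold change of 6.83. The 8 macrophage markers were Adgre1, Csf1r, Itgam, Cd68, Mertk, Fcgr1, Lyz2 and Cd14. Their summed level was 29946 to 31229 CPM in control and 35887 to 36245 CPM in LPS libraries. Cd14 alone went from 398 to 3623 CPM, while Fcgr1 went from 396 to 284 CPM. At the adjusted p, 6 markers were higher and 1 lower with TMM, but 1 higher and 6 lower with library size alone. The higher sum is therefore not read as more macrophages. The 5 T cell markers summed to at most 0.708 CPM, 4 B cell markers to at most 3.40, 3 NK cell markers to at most 2.56, 6 neutrophil and precursor markers to at most 46.2 and 4 stromal markers to at most 14.1 CPM in any library. Ly6g, which defines neutrophils, had at most 3 counts in each library. The 4 dendritic cell markers Flt3, Zbtb46, Siglech and Xcr1 were higher with LPS, with sums of 3.15 to 4.01 CPM in control and 9.62 to 10.6 CPM in LPS libraries. Of these, Xcr1 had 2, 1 and 2 counts in the PBS replicates against 27, 17 and 15 after LPS. It passed the filter on low counts only through the LPS libraries. The part of these markers in the results below was not tested. In RNA of whole cultures, fewer cells of a type and less RNA per cell cannot be told apart.

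All 9 genes passed the filter on low counts. With LPS, Jak2 and Stat5a rose and Stat2 fell past both criteria, so that 3 of the 9 genes were called. Among all tested genes 20.9% were called by the same rule, 10.5% higher and 10.4% lower, and with 9 members nothing is read from the difference between the shares. At the adjusted p alone, 6 of the 9 genes were called, 5 higher (Jak2, Stat5a, Stat3, Jak1 and Stat6) and 1 lower (Stat2), beside 67.7% of all genes (32.9% higher and 34.9% lower). With library size alone the split was 3 higher and 6 lower, and with upper quartile scaling 4 higher and 3 lower. The directions of Jak2, Stat5a, Stat3 and Stat2 were the same under each scaling tried. The normalized levels of control and LPS libraries did not overlap for 7 of the 9 genes, beside 70.5% of all genes. The median log2 fold change was 0.11 over the 9 genes and -0.01 over all tested genes.

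**Figure D1:**
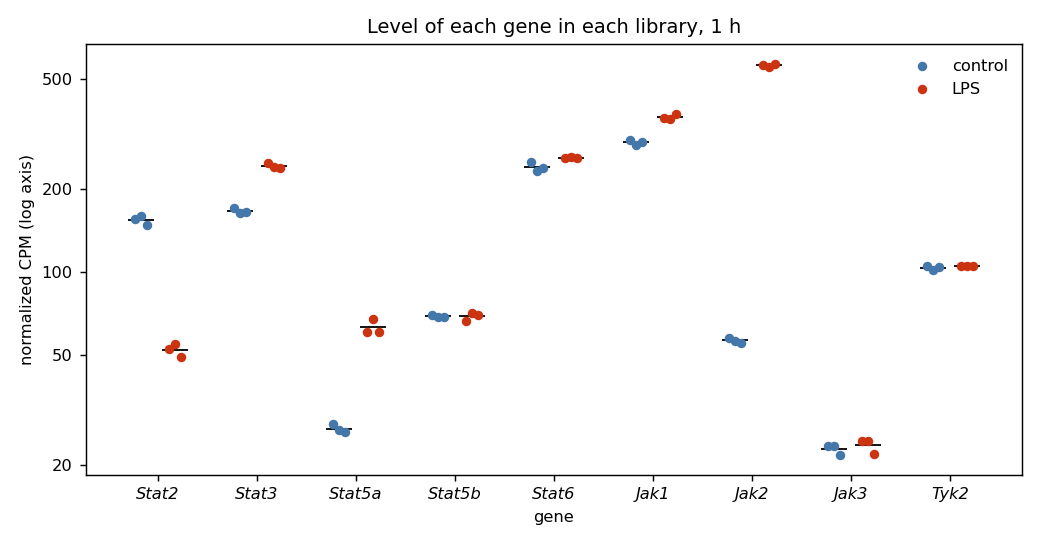
Normalized CPM (log axis) of the 9 STAT and JAK genes in each of the 3 control and 3 LPS libraries, with 1 point per library and a bar at the group mean. Jak2 stood at 55.6 to 57.9 CPM in control and 554 to 569 CPM in LPS libraries, and Stat2 moved the other way.

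The promoters of the genes that moved past both criteria are shown with that of Stat5b, the close relative of Stat5a that was at nearly the same level in both groups with TMM scaling. They are RefSeq sequences of GRCm38.p6, from 250 bases before the transcription start to 50 bases into the transcript, on the strand of the gene. Stat5a and Stat5b have 2 such promoters each, of which 1 is shown, and which start these cells use was not tested. Capitals mark matches, on either strand, to the consensus of the ISRE (GAAA, any 2 bases, then GAAA, the element bound by the interferon-stimulated complex that holds STAT2), the GAS element (TTCNNNGAA, bound by STAT dimers), the AP-1 site (TGANTCA) or the NF-kB site.

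Jak2, chr19:29251553-29251852, plus strand: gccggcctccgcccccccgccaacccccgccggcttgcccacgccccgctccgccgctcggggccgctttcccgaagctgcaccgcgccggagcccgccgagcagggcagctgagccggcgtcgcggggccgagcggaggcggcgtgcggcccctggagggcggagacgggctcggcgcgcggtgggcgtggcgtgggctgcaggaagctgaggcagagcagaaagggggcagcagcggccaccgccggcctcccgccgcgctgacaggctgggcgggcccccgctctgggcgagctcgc
Stat2, chr10:128270248-128270547, plus strand: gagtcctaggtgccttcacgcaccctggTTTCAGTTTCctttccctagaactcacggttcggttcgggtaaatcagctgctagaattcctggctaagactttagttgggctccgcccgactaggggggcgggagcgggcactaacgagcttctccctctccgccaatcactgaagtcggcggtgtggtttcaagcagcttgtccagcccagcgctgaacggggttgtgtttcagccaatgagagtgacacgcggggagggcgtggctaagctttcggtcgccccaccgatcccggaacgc
Stat5a, chr11:100860234-100860533, plus strand, the second of its starts in the table: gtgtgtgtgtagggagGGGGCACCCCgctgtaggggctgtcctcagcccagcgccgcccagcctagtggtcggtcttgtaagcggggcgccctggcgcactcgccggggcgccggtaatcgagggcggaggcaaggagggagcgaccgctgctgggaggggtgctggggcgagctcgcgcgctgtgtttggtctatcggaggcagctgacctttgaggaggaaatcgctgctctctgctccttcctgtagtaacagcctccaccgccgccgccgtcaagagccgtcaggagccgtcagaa
Stat5b, chr11:100850532-100850831, minus strand, the first of its starts in the table: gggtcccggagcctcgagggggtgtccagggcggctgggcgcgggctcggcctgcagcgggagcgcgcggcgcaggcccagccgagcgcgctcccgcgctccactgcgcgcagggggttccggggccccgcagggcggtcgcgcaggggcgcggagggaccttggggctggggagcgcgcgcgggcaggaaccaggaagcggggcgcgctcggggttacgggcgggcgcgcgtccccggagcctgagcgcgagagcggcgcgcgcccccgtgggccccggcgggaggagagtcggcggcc

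Over the 11 promoters that the table holds for the 9 genes, 2 matches were found, and they did not overlap each other. The Stat2 promoter held an ISRE match from base -222 to base -213 before the start, and 3.44% of all 32851 promoters held at least 1. The second Stat5a promoter held an NF-kB match from base -234 to base -225, as did 8.46% of all promoters. No GAS match (8.30% of all promoters) and no AP-1 match (7.81%) lay in these windows. The Jak2 promoter had no match to any of the 4 patterns and was the richest in G and C after the first Stat5b promoter, with 81.0% against 82.7% there and a median of 52.7% over all promoters. It held 44 CpG pairs and the first Stat5b promoter 50, while the median promoter held 7. The first Stat5a promoter had 57.7% G and C and 5 CpG pairs, and the second Stat5b promoter 47.3% and 7, with no match in either. A match here describes letters, not binding.

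Among the kinases, Jak2 changed most. Jak2 (ENSMUSG00000024789.13, chromosome 19, 29251828 to 29313080, plus strand, GRCm38) serves the receptors for interferon gamma, GM-CSF, IL-3 and erythropoietin. It had 2755, 2559 and 2565 counts in PBS replicates 1, 2 and 3 against 18813, 18075 and 19373 after LPS. Each LPS library stood far above each control library, and libraries of a group differed little. Its level rose from 56.7 ± 1.13 to 561 ± 7.74 CPM (SD over 3 libraries of each group), a 9.90-fold difference. The log2 fold change was 3.31 (SE 0.035, edgeR adjusted p = 3.68e-22), and 2.64% of tested genes had a higher one. Omitting any 1 library gave values from 3.29 to 3.32.

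Jak1 (ENSMUSG00000028530.14, chromosome 4, 101152367 to 101265282, minus strand) acts at interferon receptors, at gp130 receptors such as that for IL-6 and at the receptors with the common gamma chain. It had 14372, 13011 and 13615 counts in the PBS replicates against 12184, 11680 and 12709 after LPS. The raw counts were thus lower with LPS, while after scaling the LPS libraries were all higher, from 295 ± 6.92 CPM to 365 ± 7.93 CPM (SD, n = 3 each). The log2 fold change was 0.31 (SE 0.033, edgeR adjusted p = 2.10e-07) with TMM and -0.10 with library size alone, so its direction depended on the scaling.

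The remaining kinases were not called with TMM. Tyk2 (ENSMUSG00000032175.11, chromosome 9, 21104068 to 21131243, minus strand), a partner of Jak1 at the receptors for type I interferon and IL-10, had 5000, 4604 and 4834 counts in the PBS replicates against 3529, 3437 and 3578 after LPS. Its level was 104 ± 1.73 CPM in control and 105 ± 0.0929 CPM in LPS libraries (SD, n = 3 each), so the log2 fold change was 0.02 (SE 0.033, edgeR adjusted p = 0.645). The groups lay side by side without overlap, with 101.9 to 105.0 CPM in control and 105.1 to 105.3 CPM in LPS libraries. Jak3 (ENSMUSG00000031805.17, chromosome 8, 71676296 to 71690575, plus strand), which works with the common gamma chain, was the lowest kinase, with 1119, 1060 and 1005 counts in the PBS replicates against 824, 798 and 747 after LPS. Its levels of 22.9 ± 0.982 and 23.7 ± 1.47 CPM (SD, n = 3 each) overlapped, with a log2 fold change of 0.05 (SE 0.057, edgeR adjusted p = 0.501). With library size alone, Jak3 had a log2 fold change of -0.36 and Tyk2 of -0.39, close to the shift of all genes.

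Because the kinases were counted in the same library, their shares of the kinase sum do not depend on the scaling between libraries. Counts per kb of merged exon were summed over Jak1, Jak2, Jak3 and Tyk2. Jak2 held 15.8%, 16.01% and 15.5% of this sum in the PBS replicates, against 61.4%, 61.3% and 61.4% after LPS. Jak1 held 57.1% ± 0.371 in control and 27.8% ± 0.246 in LPS libraries (SD, n = 3 each). The most abundant kinase transcript per kb was therefore Jak1 in each control library and Jak2 in each LPS library. Tyk2 went from 21.2% to 8.43% and Jak3 from 5.99% to 2.43% of the sum. With the longest transcript as length, Jak2 held 11.4% ± 0.190 in control and 52.2% ± 0.0355 in LPS libraries (SD, n = 3 each). In normalized level the kinase sum was 71.5 ± 1.33 CPM per kb in control and 182 ± 2.37 CPM per kb in LPS libraries (SD, n = 3 each), without overlap, a ratio of 2.54 that was 1.92 with library size alone.

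**Figure D2:**
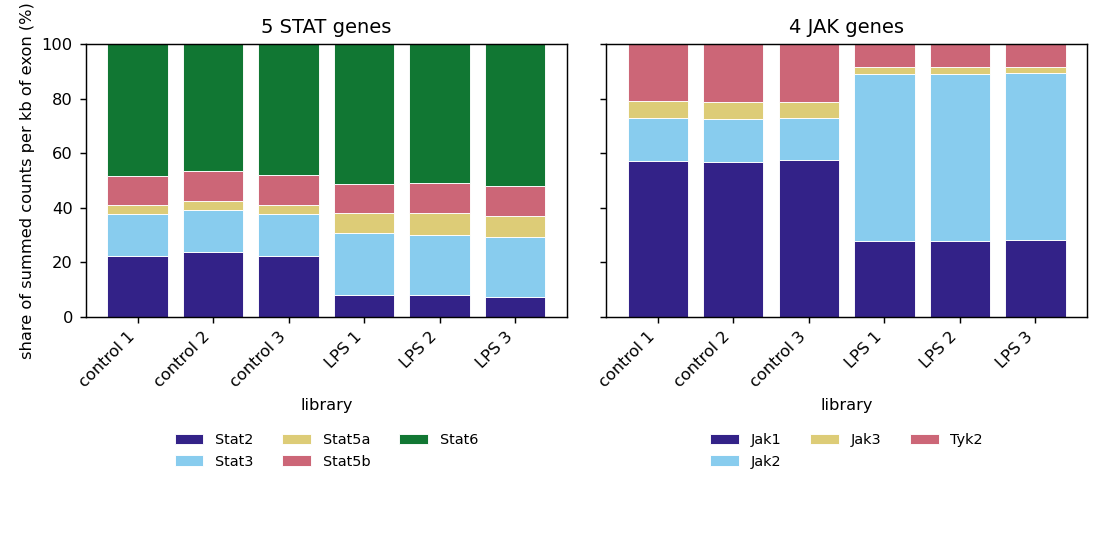
Share (%) of each gene in the summed counts per kb of exon of the 5 STAT genes (left) and the 4 JAK genes (right), with 1 stacked bar per library. Jak2 took 61.3% to 61.4% of the JAK bar in the LPS libraries and 15.5% to 16.01% in control, and Stat2 shrank in the STAT bar from 22.2% or more to 8.01% or less.

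Among the STATs, Stat2 fell most. Stat2 (ENSMUSG00000040033.16, chromosome 10, 128270559 to 128292849, plus strand) carries type I interferon signals in a complex with IRF9. Its counts were 7396, 7219 and 6843 counts in the PBS replicates against 1769, 1800 and 1685 after LPS. Every LPS library was below every control library, at a level of 52.5 ± 2.83 against 154 ± 5.79 CPM (SD, n = 3 each), 2.95-fold lower with LPS. The log2 fold change was -1.56 (SE 0.043, edgeR adjusted p = 4.85e-16), and 4.65% of tested genes had a lower one. Irf9, the DNA-binding partner of this complex, had a log2 fold change of -0.38 (SE 0.036, edgeR adjusted p = 3.77e-08). Irf9 was chosen for its known role, after its value was seen.

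Stat5a (ENSMUSG00000004043.14, chromosome 11, 100859351 to 100885169, plus strand) and Stat5b (ENSMUSG00000020919.11, chromosome 11, 100780731 to 100850724, minus strand) are close relatives that respond to GM-CSF, IL-3 and growth hormone. Stat5a had 1340, 1216 and 1220 counts in the PBS replicates against 2048, 2220 and 2072 after LPS, and Stat5b had 3344, 3110 and 3187 counts in the PBS replicates against 2241, 2319 and 2379 after LPS. Stat5a was thus higher in each LPS library even in raw counts. Its level rose from 27.2 ± 0.878 to 63.3 ± 4.08 CPM (SD, n = 3 each), 2.33-fold, with a log2 fold change of 1.22 (SE 0.049, edgeR adjusted p = 1.83e-13). With library size alone this was 0.81, under the fold criterion. Stat5b stood at 69.4 ± 0.745 CPM in control and 69.2 ± 2.21 CPM in LPS libraries (SD, n = 3 each), with a log2 fold change of -0.0030 (SE 0.037, edgeR adjusted p = 0.949). The LPS range of Stat5b enclosed the control range.

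The ratio of Stat5a to Stat5b within a library, in counts per kb, was 0.311, 0.304 and 0.297 in control and 0.710, 0.743 and 0.676 in LPS libraries. The groups did not overlap, and the difference of 1.22 in log2 ratio (2.33-fold) was larger than the spread of the libraries. A two-sided exact permutation test gave p = 0.1, the smallest p that 3 libraries against 3 allow (0.111 after adjustment over 10 ratios). With the longest transcript as length the ratio averaged 0.516 before and 1.20 after LPS, so which of the pair was higher with LPS depended on the length used. Of all stretches as long as 1 read in their annotated transcripts, 3.40% for Stat5a and 4.73% for Stat5b occur in the other gene, and reads from these cannot be assigned by sequence.

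Stat3 (ENSMUSG00000004040.16, chromosome 11, 100885098 to 100939540, minus strand) acts downstream of IL-6 and IL-10 and carries the anti-inflammatory signal of IL-10 in macrophages. It had 8160, 7400 and 7613 counts in the PBS replicates against 8319, 7877 and 8082 after LPS. Raw counts overlapped between the groups, and after scaling each LPS library was higher, at 242 ± 5.27 against 167 ± 4.07 CPM (SD, n = 3 each). The log2 fold change was 0.54 (SE 0.033, edgeR adjusted p = 9.10e-11), short of the fold criterion, and 0.13 with library size alone (adjusted p = 0.00123).

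Stat5b, Stat5a and Stat3 lie next to each other, 8626 bp apart for the first pair and overlapping by 72 bp at the 3′ ends of Stat5a and Stat3, which face each other on opposite strands. The neighbours thus gave log2 fold changes of -0.0030, 1.22 and 0.54 in this order. The overlap is exonic in both genes, and without a stated strand setting of the counting its reads cannot be assigned. It covers 72 of 7133 merged exon bases of Stat5a and of 9527 of Stat3.

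**Figure D3:**
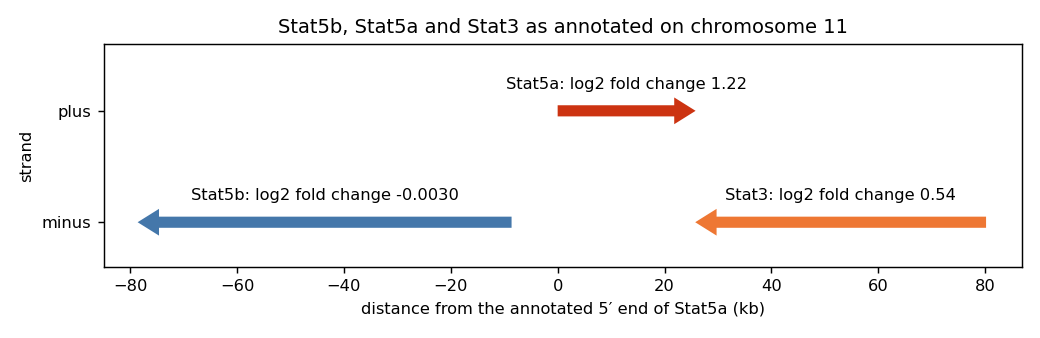
Map of Stat5b, Stat5a and Stat3, drawn as arrows in the direction of transcription by strand, with the distance in kb from the annotated 5′ end of Stat5a on the x axis. The log2 fold changes with LPS are -0.0030, 1.22 and 0.54 for these neighbours.

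Stat6 (ENSMUSG00000002147.18, chromosome 10, 127642986 to 127660957, plus strand) relays IL-4 and IL-13, the signals of alternative macrophage activation. Its counts were 11946, 10517 and 11044 counts in the PBS replicates against 8696, 8510 and 8801 after LPS. Raw counts were lower after LPS, and the scaled groups lay side by side without overlap, with every LPS library higher. It was the most abundant of the STATs in both groups, at 241 ± 9.16 CPM in control and 259 ± 1.11 CPM in LPS libraries (SD, n = 3 each). The log2 fold change of 0.11 (SE 0.034, edgeR adjusted p = 0.0103) passed the threshold with TMM only narrowly. It was 0.08 without control replicate 2 (adjusted p = 0.0579), -0.04 with upper quartile scaling and -0.30 with library size alone.

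**Figure D4:**
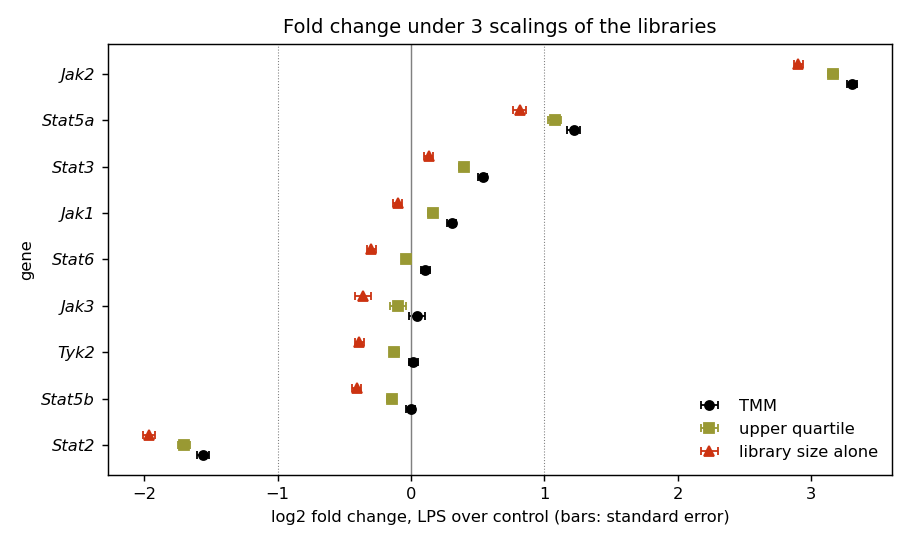
Log2 fold change (LPS over control) of each gene with TMM, upper quartile scaling or library size alone, with bars for the standard error and dotted lines at the fold criterion of 1 in either direction. Jak2, Stat5a and Stat3 stayed above 0 and Stat2 below 0 under each, while Jak1, Stat6, Jak3 and Tyk2 crossed 0.

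The 5 STAT genes summed to 115 ± 2.75 CPM per kb in control and 115 ± 1.54 CPM per kb in LPS libraries (SD, n = 3 each), with overlapping groups (exact two-sided permutation p = 0.9). This holds with TMM scaling: with library size alone, an alternative chosen after seeing the data, the sum was 132 ± 2.87 CPM per kb in control and 99.6 ± 0.882 CPM per kb in LPS libraries, without overlap. The shares within the sum do not depend on this scaling. Stat2 went from 22.7% ± 0.927 to 7.72% ± 0.316, Stat3 from 15.3% ± 0.0790 to 22.2% ± 0.497 and Stat5a from 3.32% ± 0.0339 to 7.74% ± 0.402 (SD, n = 3 each). Stat6 held 47.7% in control and 51.4% in LPS libraries, and Stat5b 10.9% in both. Of the 10 ratios and shares computed for the family, 9 did not overlap between the groups, and the share of Stat5b was the exception. For comparison, the normalized levels of 70.5% of all tested genes did not overlap. Shares of a sum depend on each other, so the 9 are not separate changes. The shares of Jak3 and Tyk2 fell as that of Jak2 rose, though their own levels were not called with TMM.

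Per kb of merged exon, the order of levels in the control libraries was Stat6 (54.8 CPM per kb), Jak1 (40.8), Stat2 (26.1), Stat3 (17.5), Tyk2 (15.1), Stat5b (12.5), Jak2 (11.3), Jak3 (4.28) and Stat5a (3.81). No neighbours in this order overlapped over the 3 libraries. In the LPS libraries the order was Jak2 (112 CPM per kb), Stat6 (58.9), Jak1 (50.5), Stat3 (25.4), Tyk2 (15.3), Stat5b (12.5), Stat5a (8.88), Stat2 (8.85) and Jak3 (4.42), and only Stat5a and Stat2 overlapped. Jak2 moved from the seventh place to the first and Stat2 from the third to the eighth. With the longest transcript as length, Stat5a passed Jak3 in control, and Jak1 passed Stat6 and Stat5a passed Stat5b in LPS libraries.

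Genes that overlap the members or lie within 5 kb of them were checked for reads that could be shared. Il23a, the cytokine subunit gene 3289 bp downstream of Stat2 on the other strand, had 1, 0 and 2 counts in the PBS replicates against 1346, 1212 and 1330 after LPS. It moved opposite to Stat2, and Apof, 405 bp upstream of Stat2, had at most 9 counts. Nab2 overlaps Stat6 by 40 bp on the other strand and had a log2 fold change of 0.08 (SE 0.052, edgeR adjusted p = 0.180), which was -0.32 with library size alone. Gm16229, near Stat6, had at most 3 counts in any library. Insl3 shares 404 exonic bases with Jak3 on the same strand and had at most 10 counts in any library. On the other strand, 1700084C06Rik shares 554 exonic bases with Tyk2 and had at most 5 counts. Of all stretches as long as 1 read, 5.49% for Jak3 and 6.19% for Tyk2 also occur in these genes, for Tyk2 on the opposite strand. How reads over such overlaps were counted is not stated, so the low counts do not show that no reads were shared or lost. Jak1 overlaps Raver2 by 4 bp and spans Gm24468 and Gm12785 within introns, which had at most 2, 0 and 20 counts. Cdc37, 1978 bp from Tyk2, had a log2 fold change of 0.35, which was -0.06 with library size alone. Unc13a, 4538 bp upstream of Jak3, had at most 63 counts, and B3gnt3, 180 bp downstream of Jak3, had a log2 fold change of -0.24. None of the neighbours of Jak3 or Tyk2 was called at both criteria.

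The tested genes whose pattern over the 6 libraries lay nearest to that of Jak2, by the Euclidean distance of gene-centred log2 CPM, were Frmd6 (0.0685), Cflar (0.0686) and Itga5 (0.0712). Their log2 fold changes were 3.31, 3.27 and 3.32. Nearest to Stat2 were Gtf3c4 (0.105), Tdp2 (0.108) and Zfp319 (0.113), with log2 fold changes of -1.56, -1.59 and -1.56. With 2 groups this distance mostly compares the sizes of change.

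The rest of the pathway was read from lists of ligands, receptor subunits, inhibitors, partners and known targets. Of the 27 cytokine ligand genes, 16 passed the filter on low counts and 14 of these rose past both criteria, which was 12 with library size alone. Several of the 16, such as Il6, Csf2, Csf3 and Il23a, had next to no counts in the PBS replicates and passed only through the LPS libraries, so nothing is read from this count. Of the 7 ligand genes with at least 10 counts in every library, 6 rose past both criteria in the fit to genes filtered that way. Their median log2 fold change was 2.83, and 1141 of all 13793 genes in that fit rose past both criteria. With no filter beyond 1 count, 15 of 22 rose, with a median of 3.68, beside 2117 of all 27479 genes. That filter too admits genes through their LPS counts alone, so nothing is read from its count either. Csf2 was named here after its counts were seen. Il6, a ligand that signals through Jak1 and Stat3, had 1, 2 and 4 counts in the PBS replicates against 5798, 5293 and 5885 after LPS. Csf3, which encodes G-CSF, had 0 counts in each PBS replicate against 713, 673 and 683 after LPS, at least 302-fold above a floor of 3 counts per library, taking the lowest LPS level and the highest floor. Il23a, whose counts are given above, was the other ligand named by the largest changes. No tested ligand fell at the adjusted p, and 8 of the ligand genes had at most 3 counts in every library, so their changes were not detectable at this depth.

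Of 38 receptor genes 30 were tested, and 2 rose past both criteria, beside 10.5% of all tested genes. Library size alone gave 1 higher and 1 lower. The median log2 fold change was 0.43 with TMM and 0.02 with library size alone. Il15ra, the IL-15 receptor chain, rose from 5.41 ± 0.171 to 12.98 ± 0.674 CPM (SD, n = 3 each), with a log2 fold change of 1.26 (SE 0.079, edgeR adjusted p = 1.05e-10), which was 0.86 with library size alone and so under the fold criterion. Il2ra, named after its value was seen, had 7, 4 and 10 counts in the PBS replicates against 98, 60 and 75 after LPS. It passed the filter only through the LPS libraries, so nothing is read from the count of 2. With at least 10 counts in every library, 1 of 29 receptor genes rose past both criteria, beside 1141 of all 13793 genes. At the adjusted p alone 21 rose and 5 fell, beside 32.9% higher and 34.9% lower among all tested genes. With library size alone these counts were 13 and 7. The 5 lower ones, named after their values were seen, were Il12rb1, Lifr, Il6ra, Il6st and Il11ra1. The call of Il11ra1 (log2 fold change -0.13, edgeR adjusted p = 0.0345) was lost in 7 of the alternatives. Of these, Il6st encodes gp130, the shared signalling chain of the IL-6 family, and stood at 345 ± 6.90 CPM in control and 264 ± 3.69 CPM in LPS libraries (SD, n = 3 each). Il6ra, the IL-6 binding chain, stood at 94.0 ± 3.33 and 70.3 ± 2.16 CPM (SD, n = 3 each). Il6st had a log2 fold change of -0.39 and Il6ra of -0.42.

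All 21 inhibitor genes were tested, and 6 rose and 1 fell past both criteria, with a median log2 fold change of 0.19 that was -0.22 with library size alone. By the same rule 10.5% of all tested genes rose and 10.4% fell. Socs3, which blocks signalling from gp130 receptors, rose from 451, 498 and 486 counts to 62985, 62674 and 60944 counts, a 180-fold difference in level. Cish, an inhibitor of Stat5 signalling, went from 28, 27 and 18 to 1636, 1582 and 1658 counts (log2 fold change 6.52, SE 0.090, edgeR adjusted p = 1.47e-20). Dusp1, a MAP kinase phosphatase placed in this list, had a log2 fold change of 6.51. Socs6 was the inhibitor that fell, from 109 ± 1.52 to 48.1 ± 0.392 CPM (SD, n = 3 each), with a log2 fold change of -1.18 (SE 0.035, edgeR adjusted p = 1.87e-15).

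Of 13 partners and coactivators 1 passed both criteria, beside 20.9% of all tested genes. It was Sh2b2, an adaptor that binds JAK kinases, which rose from 8.79 ± 0.353 to 74.8 ± 5.76 CPM (SD, n = 3 each; log2 fold change 3.09). The median of this list was -0.01. At the adjusted p alone 6 of these genes were higher and 6 lower, where 67.7% of all tested genes were called. With library size alone these counts were 1 and 8.

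Of 34 known STAT target genes 32 were tested, and 15 rose and 1 fell past both criteria, with a median log2 fold change of 0.90. Of all tested genes 10.5% rose and 10.4% fell by this rule. Library size alone gave 12 higher, 3 lower and a median of 0.50, and upper quartile scaling gave 15 higher and 3 lower. Over all 15687 genes, 1213 were higher and 2964 lower with library size alone, and 1467 and 1975 with upper quartile scaling. The list holds Socs3 and Cish, described above, and many of its genes also respond to other factors. Cxcl10, a chemokine of the interferon response, rose from 14.5 ± 0.590 to 470 ± 8.26 CPM (SD, n = 3 each; log2 fold change 5.02). Ifit2, an antiviral gene known as a target of the STAT2 complex, was the one that fell past both criteria with TMM. It went from 400 ± 13.5 to 189 ± 8.54 CPM (SD, n = 3 each), with a log2 fold change of -1.08 (SE 0.038, edgeR adjusted p = 2.44e-14). Other interferon-response genes of the list, named after their values were seen, went both ways. By log2 fold change, Oasl1 (2.32), Isg15 (1.52), Rsad2 (1.24), Mx2 (0.94) and Ifit1 (0.63) were higher. Ifit3 (-0.89), Mx1 (-0.87), Irf7 (-0.53), Oas2 (-0.38) and Usp18 (-0.14) were lower. Retnla, a Stat6 target, had no counts in any library.

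**Figure D5:**
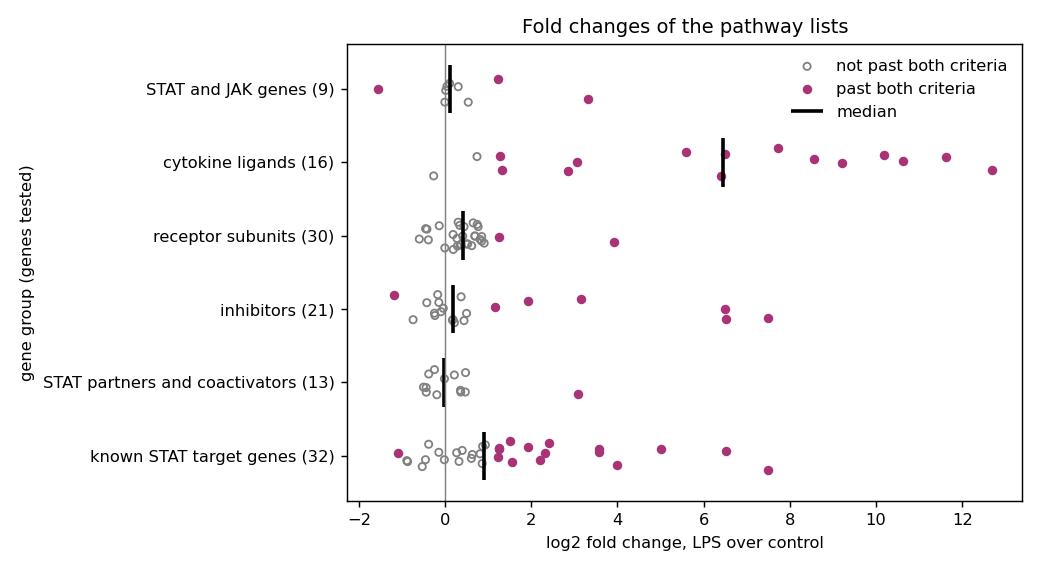
Log2 fold change (LPS over control) of each tested gene of the STAT and JAK genes and of 5 pathway lists, with filled points for genes past both criteria, open points for the others and a bar at the median. The ligands shown are the 16 that passed the filter, several only through their LPS counts, and the median of the receptor subunits was 0.43 with TMM. Fitted values are no bound for ligands whose control counts are all 0.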

How the data were processed

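Total RNA of 6 BMDM libraries was analysed, 3 treated with PBS and 3 treated with LPS for 1 h, as the sample labels group them. The authors aligned paired-end reads to GRCm38 with HISAT2 2.1.0, handled alignments with SAMtools 1.17, checked reads with FastQC 0.11.9 (versions per the labels) and counted reads per gene with featureCounts 2.0.0. The deposited values are these raw counts, without normalization. How strand and multi-mapping reads were handled, and which annotation release was used, are not given in the sources used here. Libraries were made with the TruSeq Stranded Total RNA Globin kit.

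The table lists 55335 identifiers, of which 55154 matched GENCODE M21 without the version suffix. Library totals of 37787611 to 41516330 counts limit the precision, and a floor of 3 counts was used, covering counting error only. Genes were filtered with filterByExpr (15687 kept) and tested with edgeR 4.0.16 in R 4.3.3 (TMM, quasi-likelihood, Benjamini-Hochberg), without a batch term, as the study compared conditions pairwise. Standard errors come from the F statistic. Alternatives used DESeq2 1.42.0, which the authors name for their own comparisons, and limma 3.58.1. Ratios used counts plus 0.5, per kb of exon. On simulated counts, 200 of 200 genes changed by 1.5 on the log2 scale were recovered among 15227 genes, with 0 false calls. The changed genes had ample counts and rose or fell in equal number. The simulation held no shift between the groups like that in the data, so it did not test the scaling. Figures used matplotlib 3.10.9.

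The labels give same-numbered libraries of both groups the same batch. They do not say what a batch is, so whether the numbers pair the samples is not known. Across genes, deviations from the group mean correlated by -0.0139 to 0.0822 between libraries that share a number. Between libraries of different number they correlated by -0.0817 to 0.0446. Libraries of a group differed by more than counting noise, with a chi-square of at least 5.41 per degree of freedom, so none was a copy of another. The largest values, 13.7 and 20.3, were for LPS replicate 3 against LPS replicates 1 and 2. This does not show that the libraries came from separate RNA samples.

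The members and lists were chosen with earlier results of these data known. Named genes were the 9 members, genes overlapping or within 5 kb of them, the 3 highest and 3 lowest called genes of each list with a mean of at least 50 counts, the 3 genes nearest in pattern to the members that rose and fell most, and Tnf; exceptions are stated.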

Additional observations from a re-analysis of the deposited data

How the results depend on the processing

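The alternatives were other scalings, filters and tests, a replicate block, leaving out the 10 highest genes and leaving out each library in turn. Jak2, Stat2, Stat5a and Stat3 kept their direction and stayed under an adjusted p of 0.05 in all 15 of them, over log2 fold changes of 2.90 to 3.33, -1.96 to -1.52, 0.81 to 1.24 and 0.13 to 0.56. With the replicate block the log2 fold change was 3.31 for Jak2, -1.56 for Stat2 and 1.22 for Stat5a, and the block changed no call of a member. Stat5b had log2 fold changes of 0.016 in edgeR with median-of-ratios scaling and 0.016 with the DESeq2 test, which uses the same kind of scaling. With any 1 library omitted Stat5b ranged from -0.021 to 0.021. Library size alone gave -0.41 and the upper quartile -0.15, both past the adjusted p. With library size alone the direction turned for Stat6 (-0.30), Jak1 (-0.10), Jak3 (-0.36) and Tyk2 (-0.39), and with upper quartile scaling for Stat6 (-0.036), Jak3 (-0.10) and Tyk2 (-0.12); these scalings shift all genes. Tyk2 was at -0.0068 with no filter beyond 1 count, where the adjusted p of Stat6 was 0.0533, and the cause was not tested. The share of Stat5b in the STAT sum changed by -0.0028 on the log2 scale, and by -0.019 to 0.022 with any 1 library omitted. Members past both criteria numbered 3, and 2 with library size alone. Over all genes, 3277 passed both criteria (1653 higher, 1624 lower), and 2168 with at least 10 counts in every library, where fewer genes were tested. With library size alone 29.0% of the genes past both criteria were higher, against 50.4%. With 3 libraries a group, ratios within libraries could not reach a p below 0.1.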
